A study of Mus musculus with 24 samples.

Results

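The hypothalamus of water-infused control mice was compared between day 14 (Control d14) and day 17 (Control d14+3), which is the change over 3 days in animals that were never overfed. All libraries labelled as control on these 2 days were taken, except Control d14 replicate 4, since the study removed 1 Control d14 mouse for poor RNA quality, although the label of this library gives an RNA integrity number of 9.8. This left 5 Control d14 and 6 Control d14+3 mice, 11 of the 24 libraries of the series. The mice were 18-week-old male C57BL6/J on chow, housed singly, with a catheter in the stomach. Control mice received sterile water through the catheter at the flow rates used for the liquid diet of the experimentally overfed (ExpOF) mice. From day 14 the pumps of both diets delivered water at 100 µL/h, so a Control d14+3 mouse was 3 days older than a Control d14 mouse and had also passed through that change of flow. Day, flow and date of euthanasia cannot be told apart in this design. The 12 ExpOF mice, 6 on d14 and 6 on d14+3, are used below as a second set of animals sampled on the same days.

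The hypothalamus is a mosaic of small nuclei whose neurons are recognised by their neuropeptides and their transcription factors. In the arcuate nucleus, neurons that express Agrp and Npy drive feeding and neurons that express Pomc and Cartpt restrain it, while magnocellular neurons make vasopressin and oxytocin. The thalamus lies above the hypothalamus, with the habenula on its dorsal side, and the excitatory neurons of both have transcription factors and channels of their own.

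Whole libraries held between 20965168 and 34848437 counts in the 11 control mice, and 18992 of 55471 genes passed the filter on low counts. The RNA integrity number was 9.2 ± 0.86 on d14 (SD, n = 5) and 8.62 ± 1.09 on d14+3 (SD, n = 6), a difference of -0.583 that an exact permutation test over mice did not separate from 0 (two-sided p = 0.355). It differed between the cohorts named after the month of euthanasia, with -1.47 in July and 0.60 in September. The labels name no separate cages or litters, so each p-value below rests on the spread between single mice. In the main fit this spread was estimated over all 4 groups, so it also came from the 12 ExpOF mice. Their RNA integrity number varied less, with an SD of 0.14 on d14 and 0.45 on d14+3.

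In control mice, 218 genes passed an adjusted p of 0.05 between the days (quasi-likelihood F-test of edgeR, fitted to all 4 groups), 181 higher and 37 lower on d14+3. These are 0.953% and 0.195% of all genes tested. Without the adjustment, 1293 genes (6.81%) were higher and 1126 (5.93%) lower at p under 0.05. Genes that rose included the nuclear receptor Rora, the transcription factors Zic1, Zic5, Lhx9 and Prox1, the adenylyl cyclase Adcy1 and the growth factor Kitl. Genes that fell included the feeding peptide Agrp, the opioid precursor Pdyn, the histamine-synthesising enzyme Hdc and the hypothalamic homeobox genes Bsx and Otp. Most changes were small. The median log2 fold change was 0.44 among the 181 genes and -0.34 among the 37 genes, and 14 of the 218 changed by more than 2-fold. The groups did not overlap in 206 genes (1.08%) that were higher and 94 (0.495%) that were lower on d14+3, and among the called genes this held for 109 of 181 and 18 of 37.

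The count of called genes changed with the libraries in the fit. With only the 2 control groups in the fit, so that the spread came from control mice alone, it was 0. The smallest adjusted p was then 0.0713, and 1839 genes had an unadjusted p under 0.05. DESeq2 on all groups called 540. The edgeR count over all groups fell to 24 without Control d14 replicate 2 and 58 without Control d14 replicate 3. It was 51 without Control d14+3 replicate 2, 47 without Control d14+3 replicate 4 and 109 without Control d14+3 replicate 1. Within a cohort 0 genes were called, with 1036 genes at an unadjusted p under 0.05 in July and 1527 in September. Of the 218 genes, which were chosen on the same mice, 216 had the same sign in July alone and 218 in September alone.

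Markers of the thalamus moved with the day. Their list, like the others, was chosen with earlier results of these data known. It also includes Plekhg1, which was among the genes with the largest rise. The number of its genes that rose is therefore no independent evidence. The value of a gene in a fit with these markers is given below for some genes only. Where it is not given, this does not mean that the gene was unaffected. All 7 thalamus markers (Plekhg1, Prkcd, Tnnt1, Ramp3, Synpo2, Rgs16 and Amotl1) were higher on d14+3 at an unadjusted p under 0.05, 1 of them (Plekhg1) after adjustment, with a median log2 fold change of 1.02 against -0.01 over all genes tested. Their summed level was 287, 300, 274, 624 and 562 CPM (counts scaled to library size) in Control d14 replicates 1, 2, 3, 5 and 6. On d14+3 it ran from 499 (replicate 5) to 1047 (replicate 1). Every marker was detected in every library, and Control d14 replicates 5 and 6 overlapped with the lowest d14+3 mice. These 2 Control d14 mice and Control d14+3 replicates 4, 5 and 6 were of extraction round 2, the other control mice used of round 1. In round 2, Plekhg1 had 68.9 and 64.4 CPM on d14 and 109, 70.6 and 71.7 CPM on d14+3. In round 1 it had 28.1 to 32.2 CPM on d14 and 105 to 140 CPM on d14+3. With cohort and extraction round in the fit, 186 genes were called, 175 of them among the 218. Of the 13 transcription factors and signalling genes listed for hypothalamic identity, 12 were lower on d14+3, 6 of them at an unadjusted p under 0.05 and 1 (Otp) after adjustment, with a median of -0.30. Their summed level ranged from 203 to 320 CPM on d14 and from 190 to 266 CPM on d14+3, which overlapped. Over all genes tested, 6.81% were higher and 5.93% lower at an unadjusted p under 0.05. After adjustment these shares were 0.953% and 0.195%. Of all genes tested, 48.0% had a positive value. In ExpOF mice the median of the thalamus list was 1.2 and that of the identity list was -0.33. When the mean level of the 7 thalamus markers was added to the fit, after the data had been seen, all 218 genes kept their direction and 112 were still called, but that fit called 2999 genes in all. In bulk tissue, fewer cells of a type and less RNA per cell cannot be told apart. Whether the amount of thalamus taken with each hypothalamus differed between the groups was not tested.

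**Figure D1:**
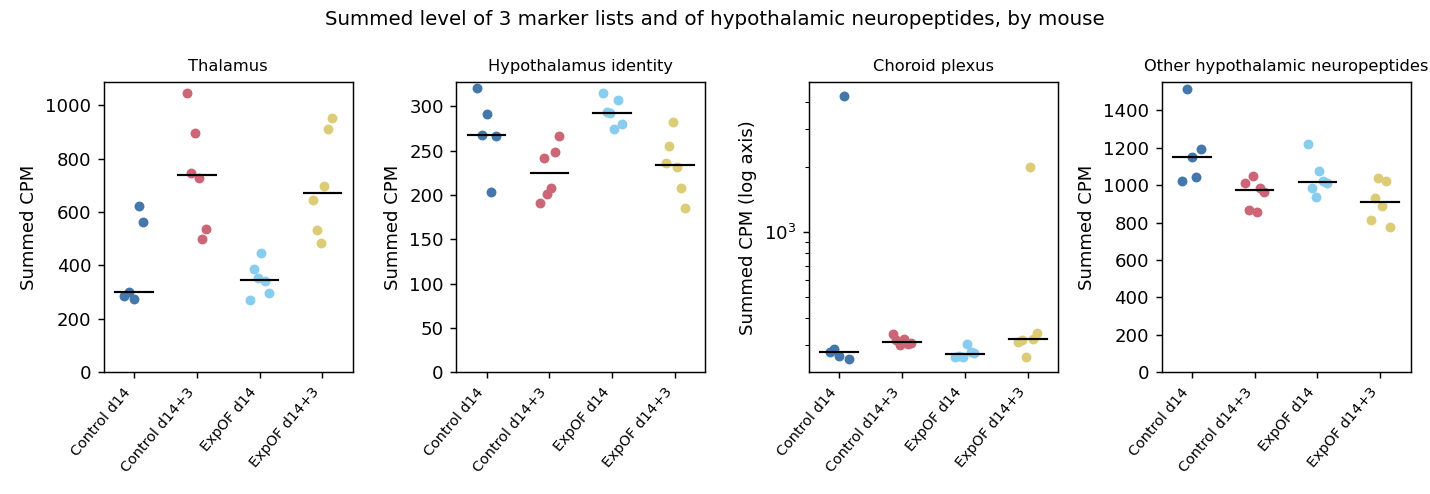
Summed CPM of 3 marker lists and of the listed hypothalamic neuropeptides in each mouse, by group. Points are mice, bars are medians and the choroid plexus axis is logarithmic. Thalamus markers reached 499 to 1047 CPM in Control d14+3 against 274 to 624 CPM in Control d14, and 1 Control d14 mouse stood at 4306 CPM for choroid plexus markers.

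Rora, a nuclear receptor that is abundant in thalamic neurons and also takes part in the circadian clock, lies on chromosome 9 (mm10 position 68653786 to 69388246, plus strand). It measured 62.3, 46.2, 60.9, 78.1 and 84.7 CPM in the 5 Control d14 mice and between 98.7 and 154 CPM, with a median of 132, in the 6 Control d14+3 mice. Every d14+3 mouse was above every d14 mouse. The log2 fold change was 0.94 ± 0.15 (SE) with an adjusted p of 0.0067, and the mean log2 CPM differed by 0.88 in July and 0.99 in September. With the thalamus markers in the fit it was 0.62, with an adjusted p of 0.0242.

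Other transcription factors rose as well. Zic5 went from 3.77 ± 0.46 CPM (SD, n = 5) to 7.39 ± 1.8 CPM (SD, n = 6), with no overlap, and a log2 fold change of 0.97 ± 0.16 (SE, adjusted p = 0.0067). Its relative Zic1, a zinc-finger factor of the developing dorsal brain, had a log2 fold change of 0.89 ± 0.17 (SE, adjusted p = 0.0107). The 5 Control d14 mice held 49.4 to 71.6 CPM of Zic1 and the 6 Control d14+3 mice 74.9 to 128 CPM. Lhx9, a LIM-homeodomain factor of thalamic neurons on chromosome 1, had 7.55, 6.90, 6.85, 10.0 and 14.1 CPM on d14 and a range of 12.2 to 27.9 CPM on d14+3. Control d14 replicate 6 overlapped with the lowest d14+3 mice, and the log2 fold change was 1.2 ± 0.27 (SE, adjusted p = 0.0278), falling to 0.39 (adjusted p = 0.193) with the thalamus markers in the fit. Prox1, a homeobox factor, rose by 0.59 ± 0.10 on the log2 scale (SE, adjusted p = 0.00742), with no overlap. Pou4f1, which marks habenular neurons, was at 0 to 0.287 CPM on d14 and reached 3.83, 2.90 and 1.98 CPM in Control d14+3 replicates 1, 3 and 4, while the other d14+3 mice had at most 0.519 CPM. Its adjusted p was 0.0486, and it was called in 2 of the 11 fits that left out 1 control mouse. Adding the thalamus markers to the fit gave 0.62 for Zic5, 0.46 for Zic1 (adjusted p = 0.058), 0.48 for Prox1 (adjusted p = 0.0242) and 0.89 for Pou4f1 (adjusted p = 0.453). Zic1, Prox1 and Pou4f1 were chosen after their values were seen.

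Genes of signalling between and within cells were also among those that rose. Adcy1, the calmodulin-stimulated adenylyl cyclase, had 96.5, 63.3, 86.4, 143 and 105 CPM on d14 and 152 to 245 CPM on d14+3, a 1.95-fold change (95% interval 1.52 to 2.5) with no overlap. Its log2 fold change of 0.96 was 0.50 (adjusted p = 0.0516) with the thalamus markers in the fit. Kitl, which encodes the ligand of the receptor Kit, had 20.2, 15.6, 17.3, 26.7 and 32.5 CPM on d14 and 32.8 to 53.1 CPM on d14+3, a 1.97-fold change (95% interval 1.55 to 2.52). The highest d14 mouse and the lowest d14+3 mouse were almost level, and its log2 fold change of 0.98 was 0.53 (adjusted p = 0.0285) with the thalamus markers in the fit. Plekhg1, a guanine nucleotide exchange factor on chromosome 10 (3740364 to 3967298, plus strand), had 32.2, 28.1, 31.6, 68.9 and 64.4 CPM on d14 and 70.6 to 140 CPM on d14+3. Its log2 fold change was 1.17 ± 0.26 (SE, adjusted p = 0.0265), or 0.38 with the thalamus markers, of which it is one, in the fit, and it was called in 5 of the 11 fits without 1 control mouse. Plekhg1 overlaps 3 annotated genes on the other strand, and whether counting used the strand is not given in the sources used here. Among channels and receptors, 4 were picked with their levels already known. On the log2 scale, the GABA-A receptor subunit Gabra4 rose by 0.84 and the potassium channel Kcnc2 by 0.60. The Kcnc2 modifier Kcns2 rose by 0.65 and the pacemaker channel Hcn4 by 0.60. The adjusted p of these 4 lay between 0.0067 and 0.0137, and the day groups did not overlap in any of them. Given how the 4 were picked, this lack of overlap is no separate evidence. It held for 109 of the 181 genes called higher, and 1.08% of all genes tested were higher without overlap. Stum, Syt1, Slc17a6 and Klf9, named below, overlap at least 1 other gene on their own strand.

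The gene with the smallest p-value of all tested was Btbd3, which directs the orientation of dendrites and was also chosen after its values were seen. It measured 109, 101, 112, 116 and 121 CPM on d14 and 138 to 170 CPM on d14+3. Its log2 fold change was 0.46 ± 0.07 (SE, adjusted p = 0.0067), or 0.35 (adjusted p = 0.0239) with the thalamus markers in the fit. The change was small, but the groups were well separated and the gene was called in all 11 fits that left out a control mouse, which held for 23 of the 218 genes.

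The remaining genes among the 10 with the largest rise were more weakly expressed or less well known. Gckr, the regulatory protein of glucokinase, rose 2.6-fold (95% interval 1.84 to 3.7) from 1.53 ± 0.68 CPM (SD, n = 5) to 4.08 ± 1.3 CPM (SD, n = 6), with overlapping groups. Stum had 119 ± 37 CPM on d14 and 232 ± 45 CPM on d14+3 (SD), and Exph5, an effector of Rab27, had 1.66 ± 0.49 and 3.51 ± 0.59 CPM (SD), both without overlap. Fam19a4, a secreted chemokine-like protein, and the predicted gene Gm43398 had log2 fold changes of 1.09 and 1.13. In the fit with the thalamus markers, Gckr was at 0.63, Stum at 0.30, Exph5 at 0.97, Fam19a4 at 0.34 (adjusted p = 0.223) and Gm43398 at 0.36 (adjusted p = 0.0662).

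**Figure D2:**
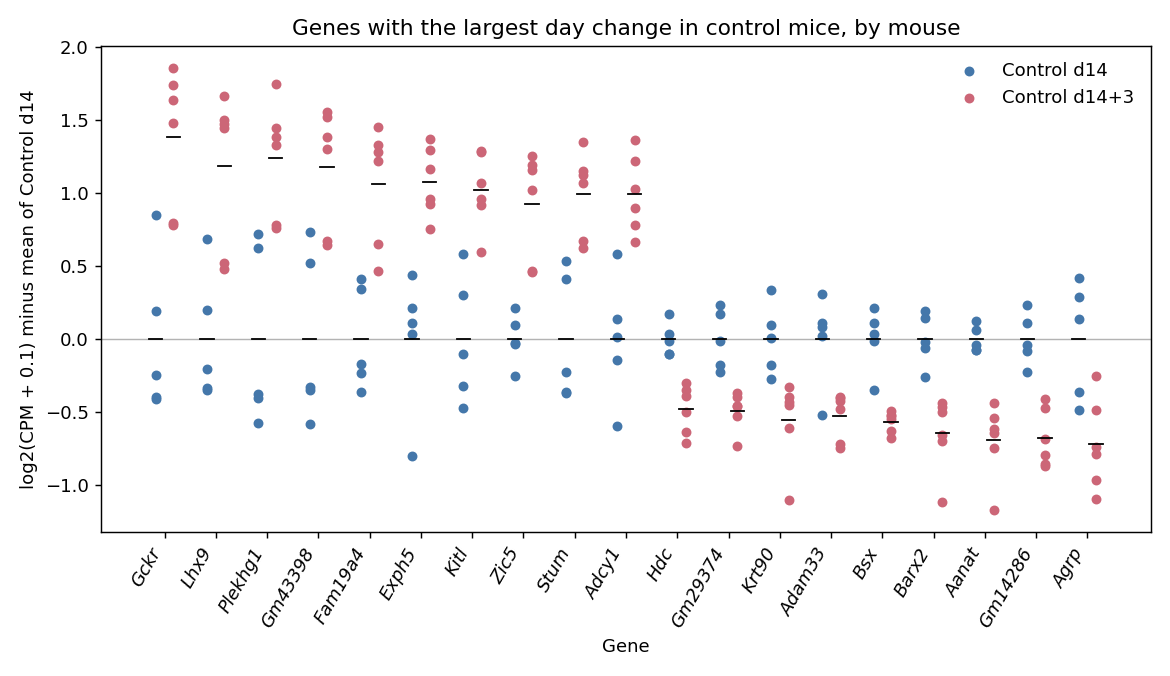
Level of each gene in each control mouse as log2(CPM + 0.1) minus the mean of Control d14, for the 10 genes with the largest rise and 9 of the 10 with the largest fall (Gh is left out because of its zeros). Points are mice and bars are group means. The d14+3 mice lie above nearly all d14 mice on the left and below them on the right, and Agrp, Adam33, Lhx9, Gm43398 and Gckr are the genes with overlapping groups.

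Because 2 nuclear receptors of the ROR family rose, the promoters of called genes were searched for AGGTCA, the half-site to which ROR proteins bind. RefSeq windows on GRCm38.p6, from 250 bases before to 50 bases after the start of a gene, were found for 135 of the 181 genes that rose and 25 of the 37 that fell. On either strand, AGGTCA stood in 7 of the 135 (5.19%), in 5 of the 25 (20.0%) and in 12.4% of all 13029 tested genes with a window. The E-box CACGTG, read by the clock proteins Arntl and Clock, stood in 16 of the 135 (11.9%), 1 of the 25 (4.00%) and 9.49% of all. A match does not show binding, which was not tested. Windows of Adcy1 and Zic5, which rose, and of the tanycyte gene Col23a1, which fell, are shown because each holds an AGGTCA match, marked in capitals as AGGTCA or its reverse complement TGACCT. Adcy1 lies at chr11:7063183-7063482 (plus strand), Zic5 at chr14:122465609-122465908 (minus strand) and Col23a1 at chr11:51289670-51289969 (plus strand).
Adcy1: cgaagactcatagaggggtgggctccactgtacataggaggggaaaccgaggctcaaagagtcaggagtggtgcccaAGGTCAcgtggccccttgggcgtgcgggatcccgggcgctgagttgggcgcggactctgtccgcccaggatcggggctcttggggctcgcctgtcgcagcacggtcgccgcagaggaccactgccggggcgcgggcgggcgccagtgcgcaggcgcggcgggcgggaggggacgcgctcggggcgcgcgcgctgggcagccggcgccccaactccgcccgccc
Zic5: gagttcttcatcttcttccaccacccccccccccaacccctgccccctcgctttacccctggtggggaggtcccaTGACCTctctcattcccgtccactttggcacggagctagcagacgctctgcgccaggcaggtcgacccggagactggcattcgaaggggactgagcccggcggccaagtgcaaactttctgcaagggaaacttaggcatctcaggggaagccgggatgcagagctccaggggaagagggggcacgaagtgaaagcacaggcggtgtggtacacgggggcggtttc
Col23a1: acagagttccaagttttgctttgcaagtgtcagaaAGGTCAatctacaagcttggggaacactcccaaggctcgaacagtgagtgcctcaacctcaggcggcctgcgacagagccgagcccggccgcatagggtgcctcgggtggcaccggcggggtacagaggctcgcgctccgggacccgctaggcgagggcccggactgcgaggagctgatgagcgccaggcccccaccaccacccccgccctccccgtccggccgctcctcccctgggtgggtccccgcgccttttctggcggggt

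Several genes that fell are known from hypothalamic neurons. Bsx, a homeobox factor needed for the expression of Agrp and Npy, had 8.39, 7.96, 9.02, 6.06 and 7.67 CPM on d14 and 4.82 to 5.48 CPM on d14+3. All d14+3 mice were below all d14 mice, and the log2 fold change was -0.58 ± 0.10 (SE, adjusted p = 0.0067). Hdc, the enzyme that makes histamine in the tuberomammillary nucleus, went from 51.4 ± 4.1 CPM (SD, n = 5) to 37.0 ± 4.2 CPM (SD, n = 6) without overlap, at -0.48 ± 0.11 (SE, adjusted p = 0.0283). Otp, a homeobox factor of neuroendocrine neurons, had 29.2 to 42.1 CPM on d14 and 22.7 to 31.6 CPM on d14+3, at -0.46 ± 0.11 (SE, adjusted p = 0.0447), and was called in 5 of the 11 fits without 1 control mouse. Magel2, an imprinted gene of hypothalamic neurons named after its values were seen, fell by 0.39 on the log2 scale (adjusted p = 0.0254). Aanat, the enzyme that precedes melatonin in its synthesis, had 3.97 ± 0.26 CPM on d14 and 2.45 ± 0.41 CPM on d14+3 (SD), and the homeobox gene Barx2 had 4.73 ± 0.58 and 3.01 ± 0.50 CPM (SD), both without overlap. The keratin Krt90, the metalloprotease Adam33 and the predicted genes Gm29374 and Gm14286 fell by between 0.50 and 0.70 on the log2 scale. Of the 11 fits without 1 control mouse, Adam33 was called in 1, Gm29374 in 3, Krt90 in 5 and Gm14286 in 7. Col23a1, a collagen of tanycytes, was lower at -0.44 ± 0.10 (SE, adjusted p = 0.0198), and all 8 genes of the tanycyte and ependymal list had negative values, with a median of -0.11. Of these 8, 1 was called, against 0.195% of all genes called lower. Over all genes tested, 48.0% had a positive value. Bsx was at -0.40 and still called when the thalamus markers were in the fit, while Hdc (-0.36, adjusted p = 0.0615), Otp (-0.21, adjusted p = 0.188) and Col23a1 (-0.25, adjusted p = 0.0773) were not.

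Gh, the growth hormone of the pituitary, had the largest fitted fall of the genes named by rule, with an adjusted p of 0.0300, but its counts came from few libraries. It stood at 94.8, 20.5, 0, 7.18 and 3.16 CPM on d14 and at 0.605 and 0.428 CPM in 2 of the d14+3 mice, with the other 4 listed at 0. The summed level of the pituitary markers was 97.7 CPM in Control d14 replicate 1 and 3.29 to 23.3 CPM in the other d14 mice, against 2.31 to 3.30 CPM on d14+3. Gh was called in 4 of the 11 fits without 1 control mouse.

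The circuit of leptin and melanocortin signalling was tested with 17 genes, of which 1 fell after adjustment and none rose, against 0.195% and 0.953% of all genes. At an unadjusted p under 0.05, 4 were lower and 2 higher, against 5.93% and 6.81% of all genes, and the median log2 fold change was -0.10, or -0.03 without Control d14 replicate 1. Agrp, the melanocortin receptor antagonist that stimulates feeding, measured 6.48, 11.2, 5.93, 9.21 and 10.2 CPM on d14 and 3.86 to 6.99 CPM on d14+3, with a median of 4.88. The 2 lowest d14 mice overlapped with the highest d14+3 mice. Its log2 fold change was -0.75 ± 0.17 (SE, adjusted p = 0.0284), and an exact permutation test over mice gave p = 0.0173. It was called in 4 of the 11 fits without 1 control mouse, and lost without Control d14 replicates 2, 5 or 6 or Control d14+3 replicates 1, 2, 4 or 6 (adjusted p 0.0506 to 0.135). The gene model of Agrp on chromosome 8 (105566698 to 105637393, minus strand) overlaps 2 other genes on its strand and 5 on the opposite strand, so its low counts may be shared. Npy, made in the same neurons, had 21.7, 28.6, 18.3, 26.2 and 26.5 CPM on d14 and 13.5 to 20.8 CPM on d14+3. At -0.46 ± 0.12 (SE) its adjusted p was 0.0527.

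On the other side of the circuit, Pomc, the precursor of melanocortins that restrain feeding, had 42.9, 44.9, 28.4, 29.9 and 43.7 CPM on d14 and 14.9 to 32.2 CPM on d14+3. Its log2 value was -0.68 ± 0.21 (SE, adjusted p = 0.128), and that of Cartpt was -0.44 ± 0.15 (SE, adjusted p = 0.171). Thus genes that stimulate and genes that restrain feeding had values in the same direction. The prohormone convertase Pcsk2, which cleaves Pomc and other precursors, was at 0.23 ± 0.06 (SE, adjusted p = 0.0747), and the receptors Lepr, Insr, Ghsr, Mc3r, Npy1r, Npy2r and Npy5r ranged from -0.33 to 0.08 with no adjusted p under 0.554. The other 5 genes of the list (Stat3, Socs3, Pcsk1, Cpe and Ptpn1) ranged from -0.16 to 0.15. With the thalamus markers in the fit, Agrp was at -0.72, Npy at -0.60 and Pomc at -1.04, each with an adjusted p between 0.0239 and 0.029. That fit, added after the data had been seen, called 2999 of 18992 genes, 1421 of them lower. Without the markers neither Npy nor Pomc was called.

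**Figure D3:**
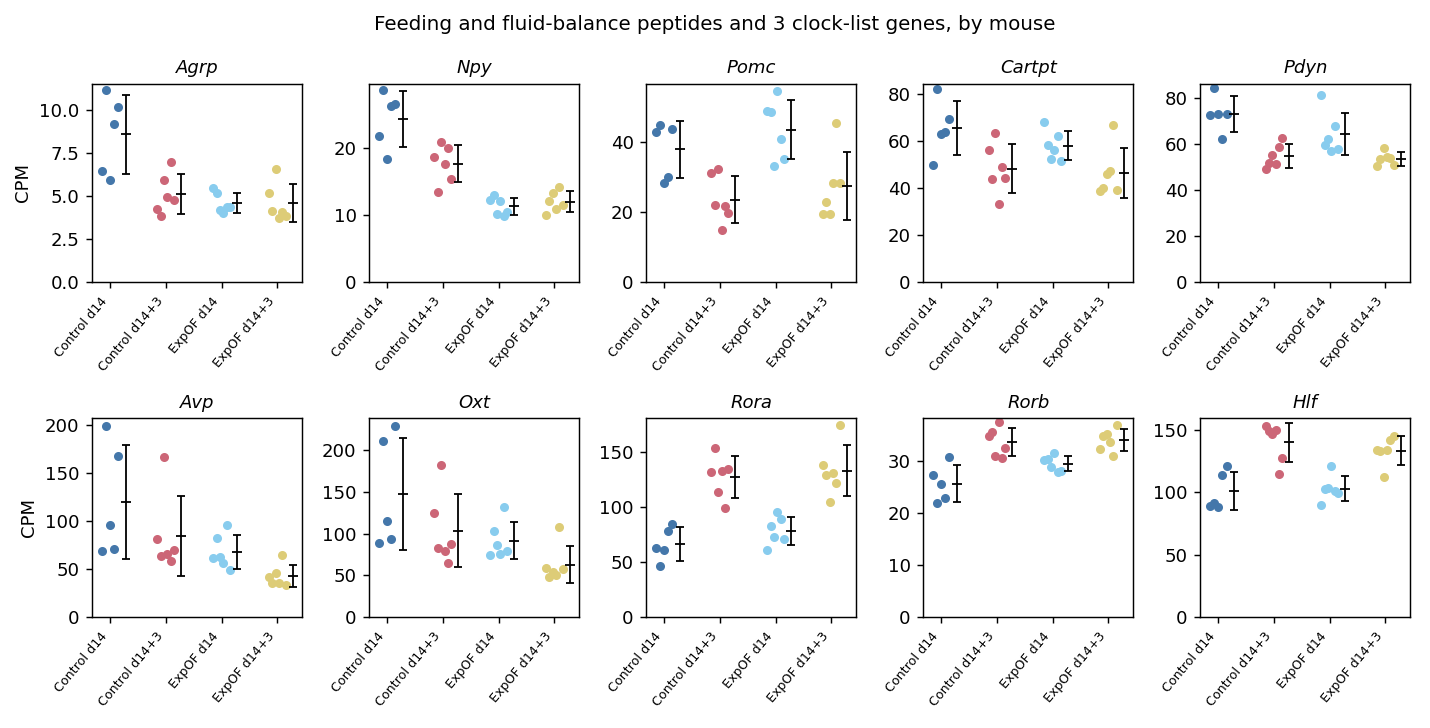
CPM of 7 peptide genes and of Rora, Rorb and Hlf in each mouse of the 4 groups. Points are mice, and the black bars give mean and SD. Pdyn fell from 73.0 to 54.8 CPM between the control groups, Avp and Oxt have wide and overlapping groups, and Rora had a mean of 127 CPM in Control d14+3 and 133 CPM in ExpOF d14+3.

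The water infusion of these mice makes genes for fluid balance and magnocellular neurons relevant. Of the 14 tested, 4 were lower and 1 higher at an unadjusted p under 0.05, against 5.93% and 6.81% of all genes. After adjustment none rose and 1 fell, against 0.953% and 0.195% of all genes. This was Pdyn, the dynorphin precursor, which had 72.7, 84.4, 73.0, 62.0 and 72.9 CPM on d14 and 49.3 to 62.8 CPM on d14+3. A single pair of mice overlapped, and the log2 fold change was -0.41 ± 0.09 (SE, adjusted p = 0.0171), or -0.24 (adjusted p = 0.0643) with the thalamus markers in the fit. Avp, the precursor of vasopressin, had 68.8, 199, 95.5, 70.5 and 168 CPM on d14 and 58.7 to 167 CPM on d14+3, a value of -0.51 ± 0.30 (SE, adjusted p = 0.516). Oxt, which encodes oxytocin, was at -0.51 ± 0.29 (SE, adjusted p = 0.496). For both, the spread between mice of 1 group was larger than the difference between days, and Control d14 replicates 2 and 6 and Control d14+3 replicate 3 were high in both genes. The angiotensin precursor Agt was at -0.23 (adjusted p = 0.265), and the magnocellular activity marker Rasd1 at 0.78 (adjusted p = 0.15), which was -0.05 with the thalamus markers in the fit. The 4 lower genes also included Trpv4 at -0.80 (adjusted p = 0.265). It had 9.92 CPM in Control d14 replicate 5 and 2.18 to 3.96 CPM in the other d14 mice. Without that mouse Trpv4 was at -0.19.

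No other hypothalamic neuropeptide was called. Of 20 tested, 12 were lower and 0 higher at an unadjusted p under 0.05, against 5.93% and 6.81% of all genes, none after adjustment, and the median was -0.31. Trh, the thyrotropin-releasing hormone, had 119, 152, 122, 120 and 135 CPM on d14 and 90.3 to 112 CPM on d14+3, without overlap (-0.35, adjusted p = 0.0628). Ghrh, which releases growth hormone, was at -0.58 (adjusted p = 0.0765). The largest positive value was that of Cck at 0.83 (adjusted p = 0.415), a peptide that thalamic and cortical neurons also make.

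The median of the circadian clock list over 21 genes was 0.07. Against 0.953% of all genes called higher, 3 of the 21 were called, all higher on d14+3. These were Rora, its relative Rorb (0.39 ± 0.08, SE, adjusted p = 0.0137) and Hlf, a PAR-type transcription factor (0.47 ± 0.09, SE, adjusted p = 0.0144). Hlf had 89.3, 91.4, 88.5, 114 and 121 CPM on d14 and 114 to 153 CPM on d14+3, with overlapping groups. With the thalamus markers in the fit Hlf was at 0.17 (adjusted p = 0.056). Of the core loop, Npas2 was at 0.35 (adjusted p = 0.19), or -0.02 with the thalamus markers in the fit, and its paralogue Clock at 0.22 (adjusted p = 0.557). Other clock genes were closer to 0, with Arntl at 0.05, Per1 at 0.16, Per2 at 0.01, Cry1 at -0.02, Nr1d1 at 0.07, Dbp at 0.02 and Tef at 0.01, each with an adjusted p of 0.506 or more. Dbp, which cycles strongly over the day, differed by -0.27 in July and 0.40 in September.

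Among 23 immediate early genes, which neurons induce within minutes of activity, 6 were higher and 0 lower at an unadjusted p under 0.05, against 6.81% and 5.93% of all genes, none after adjustment. The median was 0.17, and 0.03 with the thalamus markers in the fit. Fos had 4.20, 5.61, 4.42, 4.50 and 5.83 CPM on d14 and 5.82 to 14.9 CPM on d14+3, at 0.93 ± 0.24 (SE, adjusted p = 0.0557). Control d14+3 replicates 3 and 4 were the highest. Egr1 was at 0.50 ± 0.13 (SE, adjusted p = 0.0524). With the thalamus markers in the fit, Fos was at 0.52 (adjusted p = 0.206) and Egr1 at 0.31 (adjusted p = 0.15). In the glucocorticoid list of 20 genes, Klf9, a transcription factor induced by the hormone, rose (0.29 ± 0.07, SE, adjusted p = 0.0284), while the classical targets Fkbp5 (0.00) and Tsc22d3 (0.14) were not called and the metallothionein Mt2 had -0.47 (adjusted p = 0.101). The median of that list was 0.09, and Klf9 was its only called gene, against 0.953% of all genes called higher.

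In the synaptic adhesion and scaffold list 12 of 36 genes were higher and 0 lower at an unadjusted p under 0.05, against 6.81% and 5.93% of all genes, and Dlgap1, a postsynaptic scaffold protein, was called (0.40 ± 0.08, SE, adjusted p = 0.0124). Over all genes 0.953% were called higher. The list's median was 0.09. Of 8 neuronal markers 2 were called, against 0.953% of all genes called higher. These were the vesicle protein Syt1 (0.27) and the glutamate transporter Slc17a6 (0.29). With the thalamus markers in the fit, Syt1 was at 0.26 (adjusted p = 0.0262) and Slc17a6 at 0.20 (adjusted p = 0.0529). Slc17a7, the transporter used by cortical neurons and some thalamic ones, had 3.26, 8.69, 6.85, 30.9 and 25.7 CPM on d14 and between 17.8 and 81.1 CPM on d14+3, and the groups overlapped and the adjusted p was 0.203. Of 10 myelin genes 5 were higher without adjustment (6.81% of all genes) and none with it, at a median of 0.17, which was 0.02 with the thalamus markers in the fit. Astrocyte, microglia, endothelial, mural and oligodendrocyte precursor markers had medians between -0.04 and 0.04 with 0 genes called. No gene was called in the lists for cholesterol synthesis (median 0.06), heat shock (-0.02), ER stress (-0.07), interferon and inflammation (-0.04), snoRNA host genes (-0.16), cytosolic ribosomal proteins (-0.07), nuclear OXPHOS subunits (-0.03) and the mitochondrial genome (0.12). Striatum markers had a median of 0.11, cortex and hippocampus markers -0.04, erythrocyte markers -0.39 and basal forebrain cholinergic markers 0.47, also with 0 called.

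The choroid plexus and the meninges differed between single mice. The 11 choroid plexus markers had a median of -1.51 and 0 were called. Their summed level was 4306 CPM in Control d14 replicate 5, 258 to 289 CPM in the other d14 mice and 299 to 338 CPM on d14+3. Without that mouse the median was 0.04. Ttr, the transthyretin that dominates choroid plexus RNA, had 2889 CPM in the same mouse and 1.67 to 6.25 CPM in the other d14 mice. Leptomeningeal markers had a median of -0.41 with 0 of 12 called and 4 lower at an unadjusted p under 0.05 (5.93% of all genes). The median was -0.19 without Control d14 replicate 1, -0.20 without Control d14 replicate 5 and 0.16 without both of these and all libraries with an RNA integrity number under 8.5.

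**Figure D4:**
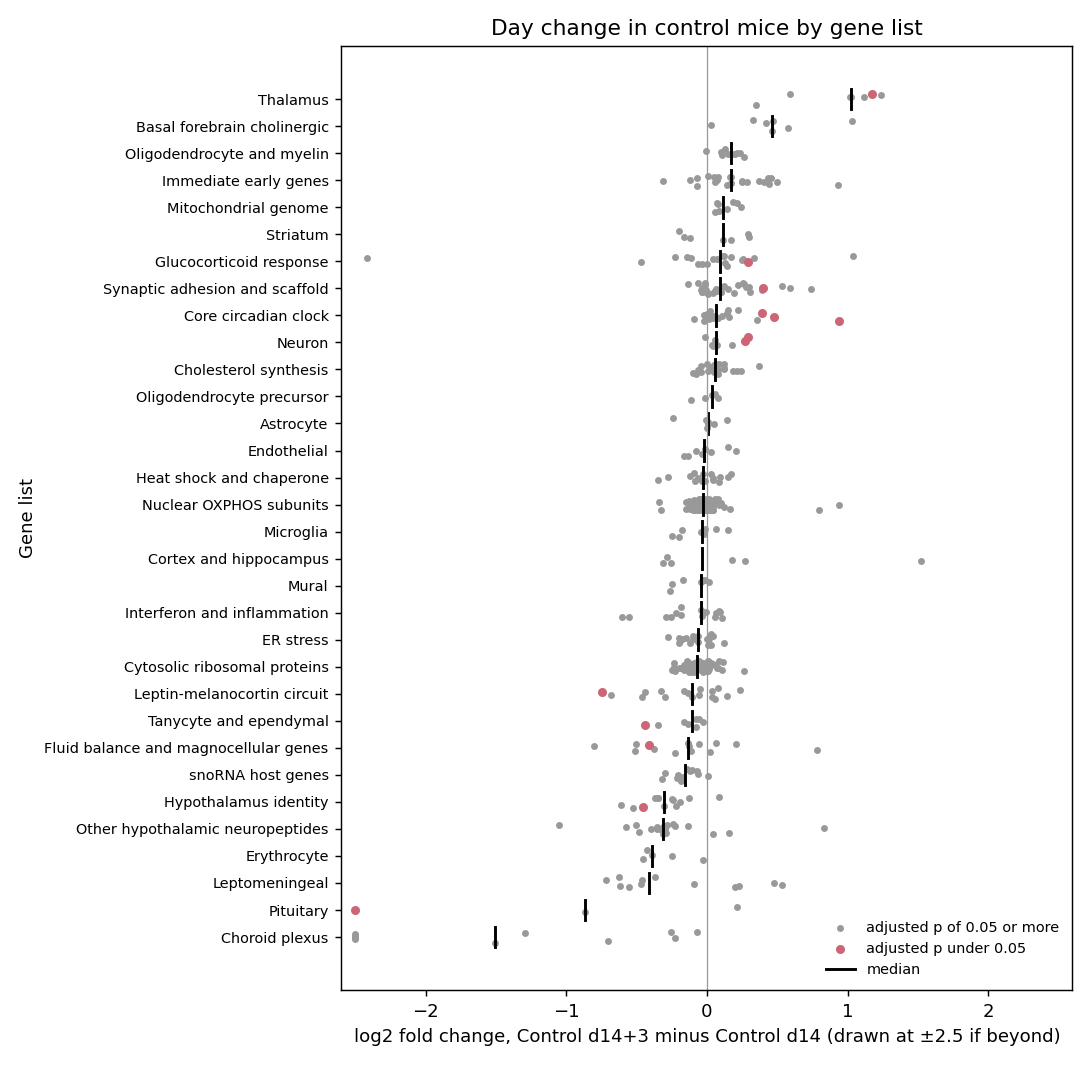
Log2 fold change of each tested gene between Control d14+3 and Control d14, by gene list. Points are genes, red ones with an adjusted p under 0.05, bars are medians and values beyond the axis are drawn at its edge. The thalamus list lies highest with a median of 1.02, hypothalamus identity and other neuropeptides lie at -0.30 and -0.31, and the choroid plexus median of -1.51 rests on 1 mouse.

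The change of the same 3 days in ExpOF mice shares no animals with the control comparison, though these mice also left overfeeding in that time. In ExpOF mice 0 genes were called by edgeR, with a smallest adjusted p of 0.0677, while DESeq2 called 197. Without adjustment 1024 genes (5.39%) were higher and 455 (2.40%) lower on d14+3. Of the 181 genes that rose in control mice, 180 had the same sign in ExpOF mice and 143 of these an unadjusted p under 0.05. Of the 37 that fell, 35 had the same sign and 16 an unadjusted p under 0.05. Over all genes 51.3% were positive in ExpOF mice.

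Rora went from 78.4 ± 13 to 133 ± 23 CPM in ExpOF mice (SD, n = 6 each), Plekhg1 from 43.0 ± 11.5 to 97.4 ± 26 CPM, Kitl from 27.3 ± 7.0 to 44.3 ± 6.8 CPM and Adcy1 from 111 ± 15 to 189 ± 51 CPM. None of these passed adjustment in ExpOF mice. Pomc had -0.68 in ExpOF mice too, from 43.5 ± 8.5 to 27.3 ± 9.7 CPM (SD, n = 6 each). Agrp and Npy were near level, at 4.62 ± 0.60 and 4.60 ± 1.1 CPM for Agrp and 11.3 ± 1.3 and 12 ± 1.5 CPM for Npy on d14 and d14+3 of ExpOF mice. The difference between the diets in the day change was 0.74 for Agrp (unadjusted p = 0.00598) and 0.54 for Npy (unadjusted p = 0.00353), both with an adjusted p of 0.903. Over all genes this test called 0, and 840 genes (4.42%) had an unadjusted p under 0.05, so no gene was shown to change differently over the 3 days in control and overfed mice.

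**Figure D5:**
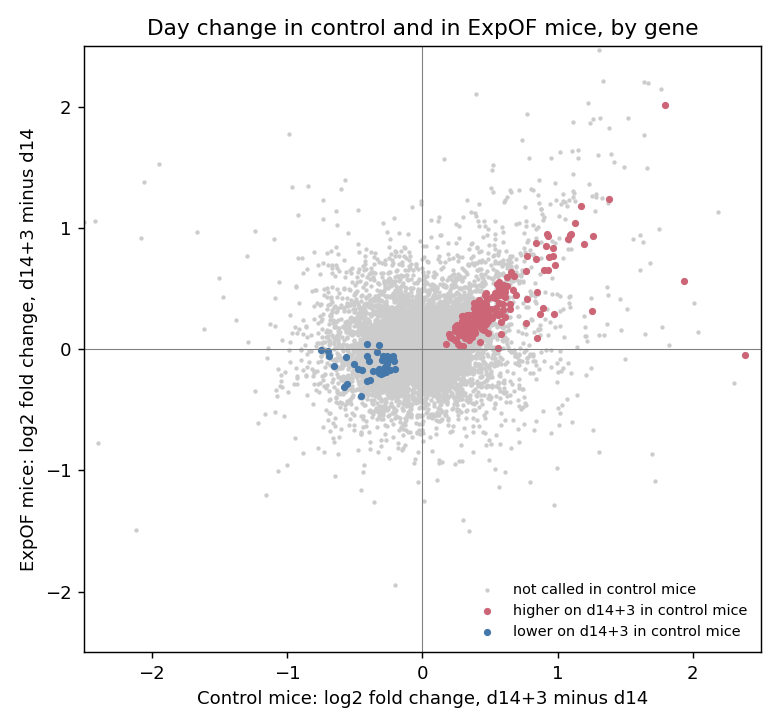
Log2 fold change between d14+3 and d14 in control mice (x axis) and ExpOF mice (y axis), 1 point per gene. Genes called in control mice are in red (higher) and blue (lower), and 11 genes, 2 of them called, lie outside the axes at 2.5. Among the red points 180 of 181 are above 0 on the y axis, and among the blue points 35 of 37 are below it.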

How the data were processed

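Poly-A RNA of frozen hypothalami was sequenced from stranded mRNA libraries, 1 per mouse. Per the labels and the study's methods, the authors aligned reads with STAR to mm10 and deposited raw counts per gene from featureCounts 1.6.4. Whether counting used the strand is not given in the sources used here, and such counts depend on the gene models where genes overlap. Gene symbols were matched for 55144 of 55471 genes.

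Groups came from the sample labels, and 1 Control d14 library (replicate 4) was left out as described. edgeR 4.0.16 (R 4.3.3) was fitted to the counts of 23 libraries in 4 groups (TMM scaling, filterByExpr at min.count 10 and min.total.count 15, quasi-likelihood F-test with robust dispersion, Benjamini-Hochberg over all genes, threshold 0.05). SE is the log2 fold change divided by the root of F. CPM used TMM library sizes, and log2 CPM a prior count of 2. Single genes were also tested by a two-sided exact permutation test over mice, for which 462 groupings allow a smallest p of 0.00216. Intervals of folds are the log2 fold change ± 1.96 SE. In data simulated from these counts with 200 genes changed by 0.6 on the log2 scale, 168 were called, with 10 other calls, among 18775 genes. That change was larger than the median of the called genes, 0.44 for those higher and -0.34 for those lower. Both counts therefore hold for the simulated setting only. DESeq2 1.42.0 and the other alternatives are given in the closing section.

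Genes were named by rule. Of genes with a mean of at least 50 counts over the 11 control libraries, the 10 with the largest change per direction among those called were taken, as were all genes of the leptin-melanocortin, fluid balance and clock lists, and up to 2 genes per direction with the smallest p of each other list. The members, the gene lists and the tests were chosen with earlier results of these data known. No 2 control libraries of 1 group agreed within sampling noise (smallest chi-square per degree of freedom 5.37 over 25 pairs).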

Additional observations from a re-analysis of the deposited data

Results flagged for a closer look

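In 134 checks of named values within 1 control group, 1 mouse stood far from the others 7 times. Chance gives about 1 in 20 checks, so this number is near what chance alone would give. Control d14 replicate 1 had 94.8 CPM of Gh, against 20.5 in the next mouse, and 97.7 CPM of summed pituitary markers, against 23.3. That sum includes Gh and is mostly Gh, so these are not separate observations. Control d14 replicate 5 had 4306 CPM of summed choroid plexus markers, against 289 in the next mouse, and 416 CPM of summed microglia markers, against 344. Control d14+3 replicate 3 had 167 CPM of Avp, against 81.0 in the next mouse, and 1123 CPM of the summed fluid balance list, against 953.6. That list includes Avp, so these are not fully separate observations either. Control d14+3 replicate 1 had 25020 CPM of summed mitochondrial genes, below the 31870 of the next mouse.

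The library that was left out, Control d14 replicate 4, exceeded every control library used in 17 list sums. For cell markers these were choroid plexus at 5111 CPM (highest other library 4306), leptomeningeal at 1545 (725.8), erythrocyte at 696.1 (144.4), microglia at 430.6 (416.3), endothelial at 361.8 (291.8), tanycyte and ependymal at 182.1 (127.6) and striatum at 160.7 (137.7). For expression lists they were cytosolic ribosomal proteins at 46170 (14710), nuclear OXPHOS subunits at 35230 (13980), heat shock at 6752 (6148), the leptin-melanocortin circuit at 4436 (3288), ER stress at 3330 (2813), fluid balance at 2282 (1236), other neuropeptides at 2186 (1513), glucocorticoid response at 1515 (755.3), snoRNA host genes at 1020 (387.3) and interferon and inflammation at 538.5 (414.3). Why this library differed was not tested.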

How the results depend on the processing

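The count of 218 genes between the control days was 540 with DESeq2 (213 shared with the 218), 0 with only the 2 groups, 0 in July alone, 0 in September alone, and 376 without the 4 control libraries with an RNA integrity number under 8.5. With the replicate number as a block (the replicate block) it was 33, 30 higher and 3 lower, but same-numbered libraries shared only a number, since their deviations from the group means correlated at -0.23 to -0.09 and none correlated best with its own number. Leaving out each control mouse in turn gave 24 to 313 calls. With the thalamus markers as a covariate, added after seeing the data, it was 2999. It stayed between 154 and 272 with DESeq2 size factors, either other filter on counts, all 24 libraries, the cohort and round covariates, the RNA integrity covariate, and without all libraries of both diets under 8.5 and Control d14 replicates 1 and 5, the last chosen after seeing the data. Of the 218 genes, 2 changed sign under at least 1 of the 25 alternatives. The ExpOF count of 0 became 197 with DESeq2, 28 with at least 10 counts in every library, 1.2e+02 with only the 2 groups (120 higher and 3 lower) and 78 with cohort and round covariates, and 0 to 157 when leaving out each ExpOF mouse (157 without ExpOF d14+3 replicate 3, 87 without ExpOF d14 replicate 4). The difference between the diets stayed at 0 under every alternative run. With the thalamus markers as a covariate the sign turned for Rasd1 (-0.0546), Npas2 (-0.024), Slc17a7 (-0.0142) and Cox6a2 (-0.22). Ttr turned to 0.22 in July alone, 2.30 without libraries of low RNA integrity, -6.08 to 1.64 when leaving out each mouse (1.64 without Control d14 replicate 5) and 2.27 without those of both diets and Control d14 replicates 1 and 5. The cause of these changes was not tested. What depth limits was not tested.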
